A study of Mus musculus with 6 samples.

Results

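The genes described here are 8 genes of the MHC class II antigen presentation pathway, taken from a microarray study of mouse bone marrow-derived macrophages (BMDMs): H2-Aa, H2-Ab1, H2-Eb1, Cd74, H2-DMa, H2-DMb1, H2-DMb2 and Ciita. They were chosen by symbol, as every non-control spot whose gene name on the array equalled a member of the list, a rule that uses no measured value, although the list was drawn up with earlier results of these data known. They are 8 of 34787 gene names on the array and are read by 9 probes, since H2-Ab1 has 2. BMDMs came from the marrow of female wild-type C57BL/6 mice (given as C57/B6 in the labels, aged 6 to 8 weeks, whereas the methods of the study name the substrain C57BL/6J and an older age range) after 7 days in L929-conditioned medium, and every group shares that background. The untreated group received nothing. The LPS group received lipopolysaccharide, a bacterial TLR4 ligand, for 4 h, and the LPS+USP7i group received 10 µM HBX41,108, a small-molecule inhibitor of the deubiquitinase USP7, for 30 min and then LPS for 4 h. The dose of LPS was 100 ng/ml in the design text, while the label on treatment writes the same number per microlitre. Each group holds 2 arrays, said to come from independent experiments. No group received the inhibitor without LPS, so an effect of the inhibitor in resting cells was not measured, and whether the LPS group received the inhibitor's solvent is not given in the sources used here.

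MHC class II molecules are dimers of an alpha and a beta chain that carry peptides from endocytosed protein to the cell surface and show them to CD4+ T cells. H2-Aa and H2-Ab1 encode the chains of H2-A, and H2-Eb1 encodes the beta chain of H2-E. C57BL/6 mice carry a defective gene for the alpha chain of H2-E, so their H2-E beta chain finds no partner at the surface. Cd74 encodes the invariant chain, which fills the groove of new dimers until proteases degrade it, and the H2-DM dimer (H2-DMa with H2-DMb1 or H2-DMb2) then exchanges its last fragment for peptide. Ciita encodes CIITA, the transactivator that the RFX, CREB and NF-Y complexes recruit to the X and Y boxes of class II promoters. Macrophages carry low class II until interferon gamma induces CIITA.

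Promoters are shown here for the members whose window held boxes of this kind. The RefSeq promoter table (assembly GRCm38.p6) held windows for 5 of the 8 members. The 150 bases upstream of the annotated start of the genes with at least 1 match are printed below on the coding strand, 5′ to 3′, with capitals marking a Y box (TGATTGG), an X box (AACNGATG) or an X2 box (TGACGTCA). Positions are chr17:34287824-34287973 (minus strand) for H2-Aa, chr17:34305717-34305866 (plus) for H2-Eb1, chr17:34153041-34153190 (plus) for H2-DMb1 and chr17:34145099-34145248 (plus) for H2-DMb2.
H2-Aa: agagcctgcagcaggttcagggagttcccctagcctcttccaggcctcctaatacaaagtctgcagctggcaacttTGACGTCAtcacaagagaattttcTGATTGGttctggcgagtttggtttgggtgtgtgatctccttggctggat
H2-Eb1: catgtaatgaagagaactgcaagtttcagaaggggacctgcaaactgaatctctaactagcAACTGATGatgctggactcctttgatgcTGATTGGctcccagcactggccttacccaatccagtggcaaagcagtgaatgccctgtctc
H2-DMb1: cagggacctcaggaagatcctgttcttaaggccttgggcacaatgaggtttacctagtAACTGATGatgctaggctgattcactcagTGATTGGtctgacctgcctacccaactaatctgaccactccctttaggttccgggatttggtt
H2-DMb2: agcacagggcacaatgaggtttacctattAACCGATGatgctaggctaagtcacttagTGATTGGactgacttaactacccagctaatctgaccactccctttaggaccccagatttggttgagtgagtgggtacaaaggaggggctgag

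The members had 6 windows in all, and the 4 printed above were picked because they held a match. These 4 held a Y box together with an X box or an X2 box on searching both strands. The Y box lay at 44 to 92 bases upstream of the start. That combination occurred in 57 of 32851 windows of the same length, or 0.174%, against 5.71% for the Y box alone, 1.14% for the X box and 1.36% for the X2 box, which reads the same on both strands. H2-DMb1 and H2-DMb2, which encode alternative beta chains of H2-DM, held the X box and the Y box with 21 bases between them in both genes, and H2-Eb1 held them with 20. Neither of the 2 windows of H2-DMa held any of these letters. A match describes the letters in a window and nothing about binding in these cells.

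Probe positions in the array's own annotation (mm9) fell in the class II region of chromosome 17 for the H2 members. The H2-Aa probe lies at chr17:34421285-34421344, the H2-Ab1 probes at chr17:34406296-34406355 and chr17:34406305-34406363, the H2-Eb1 probe at chr17:34453075-34453134, the H2-DMb1 probe at chr17:34297109-34297168 and the H2-DMb2 probe at chr17:34284764-34284823. The H2-DMa probe spans chr17:34274300-34274863, which is longer than its 60 bases, and the Ciita probe lies at chr16:10526568-10526627. No genome of that build was used here, so exon and UTR positions were not read. The probes of H2-Ab1 overlap by 51 bases with 1 mismatch and are not separate measurements. The Ciita probe is of low complexity: 39 of its 60 bases are A, a share above that of 99.97% of probes on the array.

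Macrophage markers were present, and markers of other cell types were present in part. All 8 macrophage markers found (among them Adgre1, Csf1r, Mertk and Lyz2) were well above background on all 6 arrays, with a summed log2 signal of 19.2 to 19.5. Of 10 dendritic cell markers, read on the brightest probe, Siglech, Itgax and Ccr7 were well above background on all 6 arrays, Ccl17, Ccl22 and Zbtb46 on both LPS arrays and neither untreated array, and Flt3, Xcr1, Clec9a and Cd209a on none. Of 7 T and NK cell markers, Cd3e and Cd4 were so on all 6 arrays and Cd8a and Ifng on none. Further probes disagreed here too: 2 other probes of Siglech were well above background on 1 and 0 arrays, and a second probe of Cd4 on 0. Some markers moved with the inhibitor. Against LPS alone, LPS+USP7i had 2 of the 8 macrophage markers called lower, the LPS co-receptor Cd14 at -1.31 (limma adjusted p = 0.0184) and the Fc receptor Fcgr1 at -1.60 (limma adjusted p = 0.0317), and the median over the 8 was -0.39. The brightest probes of Mertk, Adgre1 and Csf1r were at -1.20, -0.57 and -0.22 and not called. Those of Itgam, Cd68 and Lyz2 were at 0.31, 0.16 and 0.15 and not called either. A second probe of Cd68, well above background on all 6 arrays, was called higher at 0.43 (limma adjusted p = 0.0332). Among the dendritic cell markers, the chemokines Ccl17 and Ccl22 were called lower, Ccl17 at -4.24 (limma adjusted p = 0.0362) and Ccl22 at least 5.15-fold (limma adjusted p = 0.0110), a bound since it was not well above background with LPS+USP7i. Of the 10 dendritic cell markers, 8 had negative values and 2 positive. The 2 were Siglech at 0.75 and Itgax at 0.27 on their brightest probes, neither of them called. Of the 6 fits that left out 1 array, 4 kept the call of Ccl22, 2 that of Cd14, 1 that of Ccl17 and 0 that of Fcgr1. The part of these markers in the class II values was not tested. Between 25002 and 27467 of 59305 spots per array were well above background and 0 were saturated. All 6 arrays lay on 1 slide, where the replicate number follows the position on the first axis and the treatment follows the position on the second, so treatment and position along that axis cannot be told apart. Values below are log2 of the quantile-normalized signal of a probe, and levels of different probes are not set against each other.

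H2-Aa, the alpha chain of H2-A, read 11.33 and 10.79 on untreated replicates 1 and 2, 11.79 and 11.08 after LPS, and 11.03 and 10.55 after LPS+USP7i. Within each replicate number the LPS array was highest and the LPS+USP7i array lowest. The untreated and LPS arrays overlapped, whereas both LPS+USP7i arrays lay below both LPS arrays. H2-Ab1, the beta chain of H2-A, read 13.95 and 13.33 untreated, 14.54 and 13.94 after LPS, and 13.67 and 13.05 after LPS+USP7i. Its second probe read 13.74 and 13.06, then 14.26 and 13.58, then 13.46 and 12.87. Both probes gave the order seen for H2-Aa. H2-Eb1, the beta chain of H2-E, read 13.86 and 13.38 untreated, 14.02 and 13.45 after LPS, and 13.30 and 12.86 after LPS+USP7i. Here the untreated and LPS arrays were close, and both LPS+USP7i arrays lay below all 4 of the others.

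Cd74, the invariant chain, read 14.07 and 13.59 untreated, 14.55 and 14.01 after LPS, and 13.99 and 13.26 after LPS+USP7i. As for H2-A, the LPS arrays were highest within each replicate number, and the LPS+USP7i arrays lay below both of them. The peptide editors varied less. H2-DMa, the alpha chain of H2-DM, read 10.45 and 10.13 untreated, 10.35 and 10.07 after LPS, and 10.19 and 9.95 after LPS+USP7i, and all 3 groups overlapped. H2-DMb1, its usual beta chain, read 12.44 and 12.37, then 12.24 and 12.21, then 12.33 and 12.29, so that no 2 groups overlapped although the means lay within 0.18 of each other.

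H2-DMb2, the alternative beta chain of H2-DM, was well above background on 0 of the 6 arrays. Its probe read 2.53 and 2.10 untreated, 3.67 and 2.01 after LPS, and 2.10 and 2.12 after LPS+USP7i. Ciita, the transactivator, was well above background only on untreated replicate 1. It read 4.44 and 4.04 untreated, 4.37 and 3.94 after LPS, and 2.88 and 3.46 after LPS+USP7i. Both genes sit at the edge of what the array reads, so the size of their differences between groups is not read as a change. The class II chains were thus measured in cells where the only probe of the transactivator, of low complexity, read near background in all 3 groups. Whether that probe misses Ciita RNA was not tested.

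**Figure D1:**
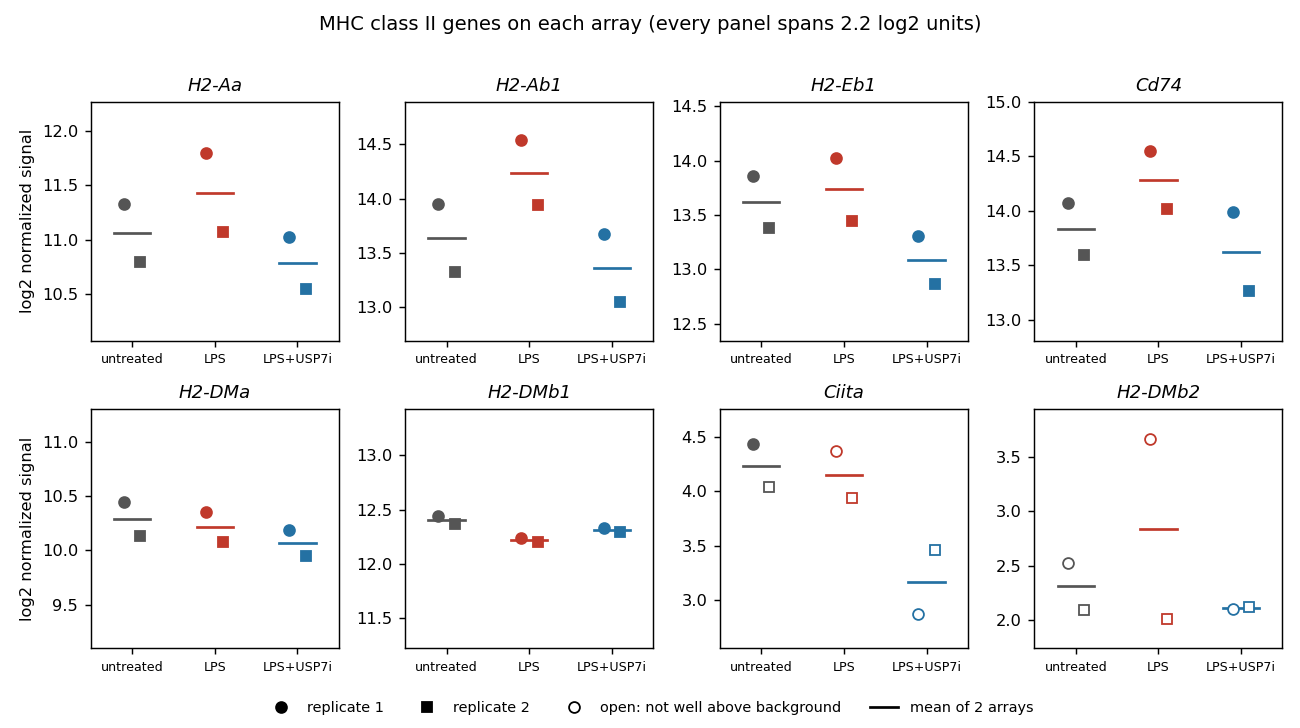
Log2 normalized signal of each MHC class II gene (vertical axis, every panel spanning the same log2 range) on the 2 arrays of each group (horizontal axis), with circles for replicate 1, squares for replicate 2, lines for group means and open symbols for probes not well above background. H2-Aa, H2-Ab1, H2-Eb1 and Cd74 were lower in both LPS+USP7i arrays than in both LPS arrays, and replicate 1 was above replicate 2 in every group for these 4 genes.

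The first comparison asked how 4 h of LPS altered these genes. None of the 8 members passed limma's test at an adjusted p of 0.05 (Benjamini-Hochberg over 55680 probes), although 7.98% of all genes passed as higher and 12.8% as lower. In bulk RNA, fewer expressing cells and less RNA per cell cannot be told apart. Some cell type markers moved with LPS. Cd14 was called higher at 1.69 (limma adjusted p = 0.00518) and Itgam lower at -0.66 on its brightest probe (limma adjusted p = 0.0233). A second probe of Cd68 was called lower at -0.43 (limma adjusted p = 0.0185). Ccl17, Ccl22 and Zbtb46 were called at least 57.5-fold, 6.65-fold and 5.65-fold higher (limma adjusted p = 0.00872, 0.00377 and 0.00435). Of the 10 dendritic cell markers, 3 were called higher and 0 lower, at a median of 0.21. The 2 with negative values were Siglech at -0.73 and Itgax at -0.26 on their brightest probes, neither of them called. The part of these markers in the class II values was not tested. After quantile normalization, the chains of H2-A and the invariant chain had the largest positive values among the 6 members measured. With arrays scaled to their 75th percentile, H2-Eb1 (0.63) came above H2-Aa (0.59). H2-Ab1 was 0.60 higher on the log2 scale with LPS (SE 0.38, 95% interval -0.45 to 1.64, limma adjusted p = 0.448, n = 2 arrays per group), or 1.51-fold, with differences of 0.58 and 0.61 in replicates 1 and 2. Cd74 was 0.45 higher (SE 0.36, interval -0.55 to 1.45, limma adjusted p = 0.533) and H2-Aa 0.37 higher (SE 0.36, interval -0.63 to 1.37, limma adjusted p = 0.612). With the replicate number as a block in the fit, 1 member was called higher, H2-Ab1 (limma adjusted p = 0.0201). In that fit 2932 of 34787 genes were called higher. H2-Ab1, Cd74 and H2-Aa were positive in both replicates, and in each case the replicate arrays of a group differed by at least as much.

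H2-Eb1 differed less, by 0.11 (interval -0.75 to 0.97, limma adjusted p = 0.929), but by 0.63 with arrays scaled to their 75th percentile. H2-DMa differed by -0.078 (interval -0.56 to 0.41, limma adjusted p = 0.898). H2-DMb1 had the smallest error of any member and was 0.18 lower with LPS (SE 0.061, interval -0.35 to -0.011), with an unadjusted p of 0.0415 by limma that became 0.151 on adjustment. Its arrays did not overlap, as for 29.9% of all genes in that direction, and its sign turned to 0.19 when arrays were scaled to their 75th percentile. No other member had an unadjusted p under 0.05 in this comparison, in either direction. The median over the 8 members was 0.24, and the median over all genes was 0.0016. The median of the members turned negative without LPS replicate 1 or without untreated replicate 2. With arrays scaled to their 75th percentile it was 0.61, against 0.40 over all genes.

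The second comparison asked what the USP7 inhibitor altered in cells that also received LPS. Again 0 of the 8 members passed limma's test, while 5.52% of all genes passed as higher and 4.27% as lower. Those calls over all genes rested on the untreated arrays: limma called 0 genes of any kind when LPS and LPS+USP7i arrays were fitted alone (8004 had an unadjusted p under 0.05), without untreated replicate 1 (8003) or without untreated replicate 2 (8004). The 4 genes for chains of the class II dimer and the invariant chain had values of similar size. H2-Ab1 was 0.88 lower with the inhibitor (SE 0.38, interval -1.92 to 0.17, limma adjusted p = 0.301), or 1.84-fold, at -0.86 and -0.89 in replicates 1 and 2. H2-Eb1 was 0.65 lower (SE 0.31, interval -1.51 to 0.21, limma adjusted p = 0.353), or 1.57-fold. Cd74 was 0.66 lower (SE 0.36, interval -1.66 to 0.35, limma adjusted p = 0.442), or 1.58-fold, and H2-Aa was 0.65 lower (SE 0.36, interval -1.65 to 0.35, limma adjusted p = 0.448), or 1.57-fold. In these 4 genes the difference was negative in both replicates, between -0.53 and -0.89. With the replicate number as a block in the fit, 2 members were called lower, H2-Ab1 (limma adjusted p = 0.0365) and H2-Eb1 (limma adjusted p = 0.0450). In that fit 1124 of 34787 genes were called lower.

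The arrays did not overlap for 5 members that were lower with the inhibitor, H2-Aa, H2-Ab1, H2-Eb1, Cd74 and Ciita, and the same held for 25.3% of all genes in that direction. H2-DMb1 did not overlap in the other direction, at 0.085 higher (interval -0.084 to 0.25, limma adjusted p = 0.550), as for 26.8% of all genes, and turned to -0.076 under 75th percentile scaling. H2-DMa differed by -0.14 (interval -0.63 to 0.34, limma adjusted p = 0.732), less than its replicates did. Ciita was the member with an unadjusted p under 0.05 (0.0282, limma adjusted p = 0.151), on a probe that read near background on all 4 of these arrays. The median over the 8 members was -0.65, against 0.00091 over all genes.

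The third comparison set LPS+USP7i against untreated cells. None of the 8 members passed limma's test without the block, against 6.16% of all genes as higher and 8.71% as lower. H2-Eb1 was the measured member with the largest difference, 0.54 lower (interval -1.40 to 0.32, limma adjusted p = 0.436), at -0.56 and -0.52 in replicates 1 and 2. Under 75th percentile scaling it was at -0.24. H2-Eb1 was also the 1 member called lower with the replicate block (limma adjusted p = 0.0374), where 3276 of 34787 genes were called lower. Markers of cell types moved in this comparison too: Fcgr1 was called lower at -1.26 (limma adjusted p = 0.0374, and 0.0402 with the block). With the block, the macrophage marker Mertk at -1.36 and the B cell marker Cd79b at -1.33 were also called lower (limma adjusted p = 0.0334 and 0.0283, against 0.0891 and 0.142 without it), while the B cell marker Pax5 was called at least 2.07-fold higher with and without it (limma adjusted p = 0.0278 and 0.0105). Among dendritic cell markers, Zbtb46 was called at least 4.41-fold higher (limma adjusted p = 0.00806, and 0.0197 with the block), with a dimmer probe not called. Ccl17, at least 3.04-fold higher, was called with the block only (limma adjusted p = 0.0251, against 0.136 without it). Over the 10 dendritic cell markers, 5 values were positive and 5 negative, at a median of -0.0059. Ccr7, well above background on all 6 arrays, was at -0.42 and not called. The part of these markers in the value of H2-Eb1 was not tested. H2-Aa was 0.27 lower (limma adjusted p = 0.764) and H2-Ab1 0.28 lower (limma adjusted p = 0.771). Under 75th percentile scaling H2-Ab1 was at -5.5e-05. Cd74 was 0.21 lower (limma adjusted p = 0.852), a value that turned to 0.098 higher under 75th percentile scaling. Ciita had an unadjusted p of 0.0219 (limma adjusted p = 0.112), but its probe was well above background on 1 of these 4 arrays. The arrays did not overlap for H2-Eb1, H2-DMb1 and Ciita, all lower, as for 29.4% of all genes in that direction. Every pair of comparisons shares the arrays of 1 group, so their values are given side by side and not as separate evidence.

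**Figure D2:**
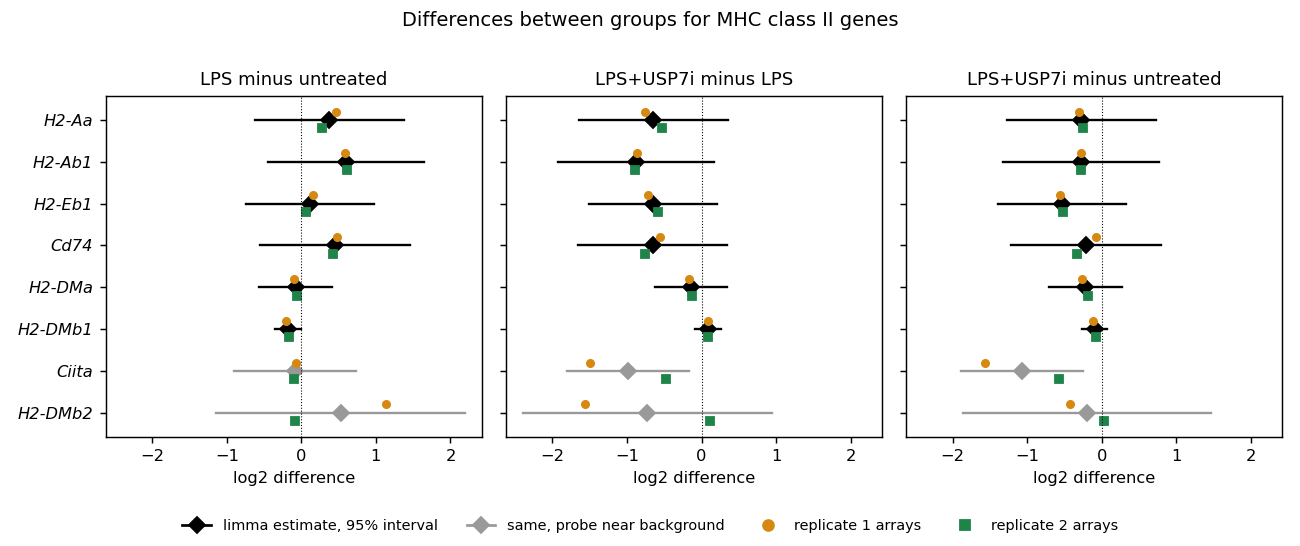
Log2 differences of the MHC class II genes in each comparison (horizontal axes), with diamonds for the limma estimate, lines for its 95% interval, and circles and squares for the difference between arrays of replicates 1 and 2. In the comparison of LPS+USP7i with LPS, the estimates of H2-Aa, H2-Ab1, H2-Eb1 and Cd74 lay between -0.65 and -0.88 with intervals that reached past 0, and grey marks the 2 genes near background.

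Replicates of the 6 members measured differed in the same direction in every group. The replicate number follows the position on the first axis of the slide, so replicate and that position cannot be told apart. Replicate 1 minus replicate 2 was 0.54, 0.72 and 0.48 for H2-Aa in the untreated, LPS and LPS+USP7i groups. It was 0.62, 0.60 and 0.62 for H2-Ab1, 0.48, 0.58 and 0.44 for H2-Eb1, and 0.48, 0.53 and 0.73 for Cd74. For comparison, the SD of this difference over 20721 probes well above background on all arrays was 0.29, 0.34 and 0.40. H2-DMa had offsets of 0.31, 0.28 and 0.24, and H2-DMb1 had offsets of 0.073, 0.035 and 0.038. In all, 6 of the 8 members were higher in replicate 1 in all 3 groups, as were 16.6% of all genes and 24.9% of the 15601 genes well above background on all arrays. Of the class I presentation genes described below, 10 of 19 were so, with medians of 0.22, 0.27 and 0.0315 in the untreated, LPS and LPS+USP7i groups. The offset between replicates of H2-Ab1 was thus about as large as its difference between untreated and LPS cells.

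Genes known from B cells, which carry much class II, were among the genes higher in replicate 1. Of 6 B cell markers found (Ighm was not found by that symbol), 5 were higher in replicate 1 in all 3 groups. Cd79a, a chain of the B cell receptor complex, was 1.02, 1.66 and 1.66 higher. The summed log2 signal of the 6 markers was 10.10 and 9.41 on untreated replicates 1 and 2, 10.18 and 9.08 after LPS, and 9.53 and 8.33 after LPS+USP7i. Cd79a and Cd79b were well above background on all 6 arrays by their brightest probe, while the second probes of Cd79a, Cr2 and Pax5 were so on 0 arrays. Between LPS and LPS+USP7i, Cd79a differed by -0.50 (limma adjusted p = 0.840) and Cd79b by -0.85 (limma adjusted p = 0.360), while Pax5, not well above background with LPS, was called at least 1.39-fold higher (limma adjusted p = 0.0244). The call of Pax5 was lost with the replicate block (limma adjusted p = 0.0537) and in each of the 6 fits that left out 1 array. The part of B cells in the class II values was not tested.

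**Figure D3:**
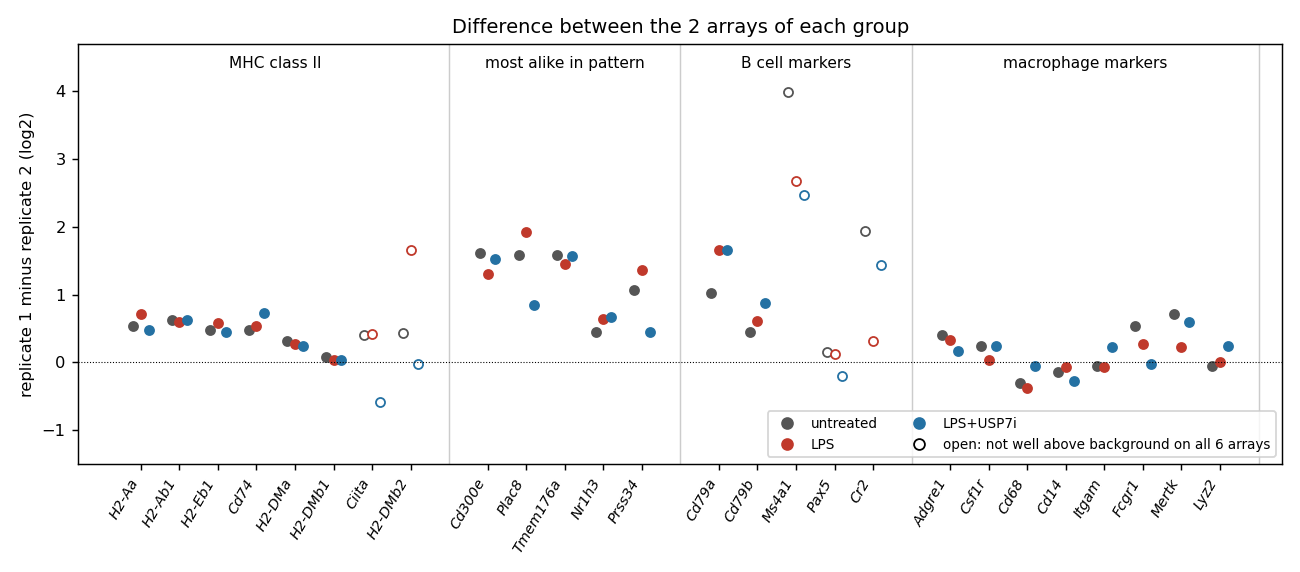
Replicate 1 minus replicate 2 on the log2 scale (vertical axis) within the untreated, LPS and LPS+USP7i groups, for the class II genes, the 5 genes most alike to them in pattern, 5 of the 6 B cell markers found, Pax5 included, and the macrophage markers. Open symbols mark probes not well above background on all 6 arrays. H2-Aa, H2-Ab1, H2-Eb1 and Cd74 lie between 0.44 and 0.73 in all groups, Cd79a lies above 1, and macrophage markers lie on both sides of 0.

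H2-Aa, H2-Ab1, H2-Eb1 and Cd74 followed each other closely over the 6 arrays. Each had a Pearson r of 0.95 to 0.99 with their mean centred profile, which they themselves make up. H2-DMa had an r of 0.81, Ciita of 0.56 and H2-DMb1 of -0.13 with that profile. Of 4259 other genes well above background on all arrays and with an SD of at least 0.5, 10 had an r over 0.95. The most alike were Cd300e, an activating receptor of monocytes (r = 0.99), Plac8 (0.98), Tmem176a (0.97), Nr1h3, the oxysterol receptor LXR alpha (0.96), and Prss34, a mast cell protease (0.96). Cd300e read 9.30 and 7.68 untreated, 10.01 and 8.70 after LPS, and 8.54 and 7.02 after LPS+USP7i, so its own offset between replicates was larger than that of any class II gene measured. All these correlations are over 6 arrays of 1 slide that share both treatment and replicate differences, and they are a description.

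Calls among the other genes of the class II pathway went in both directions with LPS, and most of these genes were not called. Of 22 such genes found, 20 exceeded background on both arrays in 1 group or more. With LPS, 3 were called higher, 5 lower and 14 neither, against 7.98% of all genes as higher and 12.8% as lower. The median of the 22 was -0.23 and turned to 0.29 under 75th percentile scaling. The count called lower was 1 with the authors' log2 table, 2 when untreated and LPS arrays were fitted alone, and 0 without untreated replicate 1, untreated replicate 2 or LPS replicate 1. With the replicate block 4 were called higher and 5 lower, with H2-Oa (higher), Cd81 and Cd9 (lower) gained and Ifi30 and Ctsh lost. Among the factors that bind class II promoters, Creb1 rose by 1.58 (limma adjusted p = 0.00572) on its brightest probe. Its 2 other probes, dim or at background, gave -1.12 and -0.0026 and were not called. Nfyb, a subunit of NF-Y, rose by 0.69 (limma adjusted p = 0.0267), and its 2 other probes were called higher too. Rfxap fell by 1.59 (limma adjusted p = 0.0332), with 1 of its 2 LPS arrays not well above background, and Rfxank by 0.61 (limma adjusted p = 0.0149), both subunits of the RFX complex. Nfyc fell by 0.59 (limma adjusted p = 0.0403) on its brightest probe, and a second probe gave 0.19 and was not called. Rfx5, the remaining RFX subunit, read 3.04 and 3.33, then 4.50 and 3.82, then 3.57 and 2.08 on its brightest probe, which stayed near background on all arrays, and its other probe was well above it on 1 array only.

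Proteases and editors of the endosome gave mixed values. Ctss, the protease that degrades the invariant chain, read 17.91 and 17.69 untreated, 17.69 and 17.61 after LPS, and 17.85 and 17.74 after LPS+USP7i, with neither difference from LPS called (limma adjusted p = 0.488 and 0.556). Ifi30, the thiol reductase GILT, fell by 0.57 with LPS (limma adjusted p = 0.0463) and was 0.62 higher with LPS+USP7i than with LPS (limma adjusted p = 0.0595). Ctsh fell by 0.37 with LPS (limma adjusted p = 0.0267), and Cd82, a tetraspanin, rose by 0.75 (limma adjusted p = 0.00732). H2-Oa, a chain of the H2-DM inhibitor H2-O, read 6.25 and 5.68 untreated, 7.41 and 6.71 after LPS, and 5.92 and 5.68 after LPS+USP7i. Its differences of 1.09 with LPS (limma adjusted p = 0.117) and -1.26 with the inhibitor added (limma adjusted p = 0.116) did not pass, while both passed with the replicate block (limma adjusted p = 0.0338 and 0.0495). H2-Ob, its partner, read 6.09 and 5.50, then 6.68 and 5.59, then 6.01 and 4.99.

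Between LPS and LPS+USP7i, 1 of these 22 genes was called higher and 0 lower, against 5.52% and 4.27% of all genes. The gene was Nfya, the NF-Y subunit, which read 10.18 and 10.28 untreated, 9.91 and 9.71 after LPS, and 11.02 and 10.87 after LPS+USP7i. It was 1.13 higher than with LPS alone (limma adjusted p = 0.0191). With the replicate block 2 were called higher, Nfya and Nfyc, and 1 lower, H2-Oa. Nfya was not called in 4 of the 6 fits that left out 1 array, among them those without untreated replicate 1 or untreated replicate 2. Further probes disagreed with the brightest for 2 of these genes: a second probe of Marchf1, a ubiquitin ligase that targets class II, was called higher at 1.13 (limma adjusted p = 0.0396) while the brightest read -0.57 (limma adjusted p = 0.347), and a further probe of Cd82 was called lower at -0.48 (limma adjusted p = 0.0390). Against untreated cells, where 6.16% of all genes were called higher and 8.71% lower, LPS+USP7i had 3 called higher (Creb1, Nfya and Cd82). It had 3 called lower (Rfxap, Rfxank and Ctsh), of which Ctsh was lost with the replicate block (limma adjusted p = 0.0532). These counts were 0 and 0 without untreated replicate 1 or untreated replicate 2, 1 and 1 without either LPS+USP7i array, and 1 and 2 with the authors' log2 table, and neither Nfya nor Ctsh was called in any fit that left out 1 array.

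Over all genes 7.98% were called higher with LPS and 12.8% lower. Among 17 regulators of class II or of interferon response, 9 were called higher with LPS and 2 lower. With the replicate block 8 were called higher and 1 lower, with Irf8 and Ifngr2 lost, and leaving out 1 array gave 5 to 8 higher and 0 or 1 lower. Socs3 and Socs1, which restrain cytokine signalling, rose by 7.91 and 7.45, and Ifnb1, interferon beta, was 7.86 higher, although only 1 of its 2 untreated arrays was well above background. These 3 and Irf1 were called in all fits that left out 1 array. Irf1, which acts at a CIITA promoter, rose by 3.90 (limma adjusted p = 0.00446). Il10, a cytokine that lowers surface class II, rose by 2.98 (limma adjusted p = 0.0212), a call that most fits leaving out 1 array lost. Ifng, the main inducer of CIITA, read 2.12 and 2.13, then 2.56 and 2.22, then 2.52 and 2.31, and never exceeded background clearly. Zbtb46, a factor of dendritic cells, was at least 5.65-fold higher (limma adjusted p = 0.00435), a bound since its untreated arrays were not well above background, with a dimmer probe not called, and Ifngr2, a chain of the interferon gamma receptor, fell by 0.32.

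With the inhibitor added to LPS, where 4.27% of all genes were called lower and 5.52% higher, 3 of the 17 were called lower and 1 higher. These counts were 0 and 0 when LPS and LPS+USP7i arrays were fitted alone and without untreated replicate 1 or untreated replicate 2, and leaving out any 1 of the other arrays gave 1 or 2 lower and 0 higher. With the replicate block 3 were called lower, of which Il10 and Spi1 were gained, and 0 higher. Irf8, a factor of macrophage identity, read 14.17 and 14.11 untreated, 15.25 and 15.87 after LPS, and 12.51 and 12.35 after LPS+USP7i. It fell by 3.13 against LPS (limma adjusted p = 0.0144) and by 1.71 against untreated cells. Ifngr2 was at -0.41 (limma adjusted p = 0.036) and Cebpb 0.94 higher (limma adjusted p = 0.0307), and neither was called with the replicate block (limma adjusted p = 0.0592 and 0.0636) or in any fit that left out 1 array. Irf1 was not called on its brightest probe, at -0.51 (limma adjusted p = 0.371), but its other probe was called lower at -1.83.

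The class I presentation genes, which load peptides from the cytosol, were measured beside them. All 19 found were well above background. With LPS, 9 were called higher and 1 lower, at a median of 0.68, against 0 of 8 class II members. Over all genes 7.98% were called higher and 12.8% lower. Tap1, a subunit of the peptide transporter, rose by 2.41 (limma adjusted p = 0.0116). Nlrc5, the class I transactivator and a relative of CIITA, read 10.95 and 10.64 untreated, 13.11 and 12.94 after LPS, and 10.92 and 11.19 after LPS+USP7i. The proteasome genes Psmb10, Psme2 and Psmb9 rose by 1.38, 1.26 and 1.11, and Tap2, the partner of Tap1, rose by 1.29. The gene called lower was not called so under 75th percentile scaling, where 12 class I genes were called higher and 0 lower, nor with the replicate block, where 10 were called higher and 0 lower. Leaving out 1 array gave 2 (without untreated replicate 2) to 6 called higher, with Nlrc5 and Psmb10 called in all 6 such fits.

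With the inhibitor added, 6 class I genes were called lower and 0 higher, against 4.27% and 5.52% of all genes. With the replicate block 4 were called lower, with Psme2, Psmb9 and Tap2 lost and Erap1 gained, and leaving out 1 array gave 0 (without any 1 untreated or LPS array) to 3. Nlrc5 fell by 1.96 (limma adjusted p = 0.0162), while its dimmer probe gave -0.52 and was not called. Psmb10 fell by 1.28 (limma adjusted p = 0.0138), Psme2 by 1.04 (limma adjusted p = 0.0266) and Psmb8 by 0.92 (limma adjusted p = 0.0357). Psmb9 and Tap2 fell by 1.36 and 0.98, with a dimmer probe of Psmb9 not called, and Tap1 was at -1.54 (limma adjusted p = 0.0524). The heavy chain H2-K1 differed by 0.18 with LPS and -0.18 with the inhibitor added, neither of them called, and H2-D1 and B2m were not called in any comparison (these 3 were named after their values were seen). Whether class I and class II genes differ in response was not tested.

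**Figure D4:**
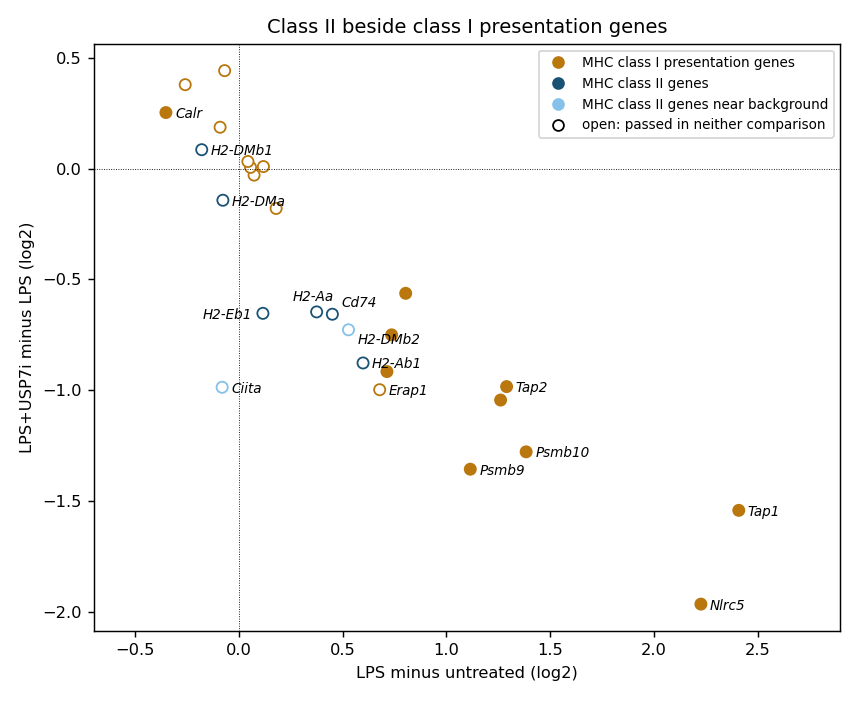
Log2 difference of LPS from untreated (horizontal axis) against log2 difference of LPS+USP7i from LPS (vertical axis) for the 8 class II genes and 19 class I presentation genes, each point a gene on its brightest probe. Both axes use the LPS arrays with opposite sign, which by itself tilts the points downwards. Filled points passed limma's test in at least 1 comparison and open points in neither, and all 8 class II genes are open.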

How the data were processed

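RNA of each sample was hybridised to an Agilent 1-colour mouse array. The scanner files, made by the authors with Agilent Feature Extraction 10.7.3.1, hold background-subtracted intensity per spot. A deposited table holds the authors' log2 normalized values, made with limma per the labels, and served as an alternative. Here, log2 processed intensity was quantile-normalized, with outlier-flagged and control spots left out and spots of a probe averaged. limma 3.58.1 (R 4.3.3) was fitted to all 6 arrays and 3 groups at once with 3 residual degrees of freedom, and adjusted by Benjamini-Hochberg over 55680 probes. On simulated data for LPS+USP7i against LPS, with 200 of 55680 probes changed by 3 on the log2 scale, this fit called 148 of the 200 and 4 of the unchanged probes. That change is larger than the difference of any member, and noise was drawn independently for each array. The simulation thus does not show how often changes of the members' size would be called. An exact permutation test of 2 against 2 arrays cannot go below p = 0.333. A gene was read on its brightest probe. Symbols came from RefSeq by accession (26762 probes), symbol (3819) or synonym (639), otherwise from the file (24461).

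Named were all members with every probe, genes of 3 lists past the threshold (at most 6 per list and comparison), some class II factors, and the 5 genes most alike in pattern. The members and lists were chosen with earlier results of these data known. Replicates are labelled independent experiments without further detail, so p-values measure the spread between these arrays. Deviations of arrays with the same replicate number correlated at 0.40 to 0.47 over 20721 probes for the 3 pairs of groups. The labels do not say that a number marks a shared experiment, so this pairing comes from the data. Fits with the number as a block are given where they change a call or count reported here. The alternatives are under the closing section. Some named items are not reported here.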

Additional observations from a re-analysis of the deposited data

How the results depend on the processing

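Each group holds 2 arrays, with replicate numbers 1 and 2, and the main fit left 3 residual degrees of freedom. With the number as a replicate block, H2-Ab1 was called higher with LPS (1 member, 0.60, adjusted p = 0.0201), H2-Ab1 and H2-Eb1 were called lower with LPS+USP7i than with LPS (2 members, -0.88 and -0.65, adjusted p = 0.0365 and 0.0450), and H2-Eb1 lower than in untreated cells (1 member, -0.54, adjusted p = 0.0374). H2-Aa and Cd74 had limma adjusted p = 0.0592 and 0.0603 for LPS+USP7i against LPS. Of 34787 genes, the block fit called 2932 higher with LPS. It called 1124 lower for LPS+USP7i against LPS and 3276 lower against untreated cells. Without the block, 0 members were called in any other setting with 2 arrays per group, except 75th percentile scaling. That scaling moved the median of all genes by 0.40 for LPS and 0.44 for LPS+USP7i against untreated cells. Under it H2-Ab1 was 1.12 higher with LPS (1 member, limma adjusted p = 0.0462), and 12150 of 34787 genes were called higher with LPS.

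The median over the 8 members moved to 0.61 for LPS against untreated and to -0.081 for LPS+USP7i against untreated under 75th percentile scaling. Normexp background correction gave 0.097 for LPS against untreated in place of 0.24, and the authors' table gave 0.13. Normexp gave -0.43 for LPS+USP7i against LPS and -0.18 against untreated, and the authors' table gave -0.35 for the last. Leaving out 1 array, the median ranged from -0.19 (without LPS replicate 1) to 0.56 (without LPS replicate 2) for LPS against untreated, and was -0.010 without untreated replicate 2 and 0.50 without untreated replicate 1. It ranged from -0.97 (without LPS replicate 2) to -0.33 (without LPS replicate 1) for LPS+USP7i against LPS, and was -0.42 without LPS+USP7i replicate 2. It ranged from -0.54 (without LPS+USP7i replicate 1) to -0.031 (without untreated replicate 1) for LPS+USP7i against untreated, and was -0.49 without untreated replicate 2 and -0.089 without LPS+USP7i replicate 2. The cause was not tested.

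For LPS+USP7i against LPS, H2-Aa, H2-Ab1, H2-Eb1, Cd74 and H2-DMa were negative in the 7 alternatives that moved their estimate (8 for H2-Ab1, which has 2 probes), at -1.01 to -0.29, -1.19 to -0.56, -0.94 to -0.36, -1.02 to -0.29 and -0.28 to -0.0050. For LPS against untreated, H2-Aa, H2-Ab1 and Cd74 were positive in those that moved theirs, at 0.015 to 0.73, 0.29 to 1.12 and 0.18 to 0.98. The remaining alternatives change only the error or the probes tested and leave the estimates as they are. Without LPS replicate 1, H2-Aa was 0.015 in place of 0.37 for LPS against untreated, Cd74 was 0.18 in place of 0.45, and H2-Aa was -0.29 in place of -0.65 for LPS+USP7i against LPS. Signs turned for values that were not called. Under 75th percentile scaling, H2-DMb1 turned to 0.19 (LPS against untreated), -0.076 (LPS+USP7i against LPS) and 0.12 (LPS+USP7i against untreated), H2-DMb2 to 0.32 and Cd74 to 0.098 in the last, and Ciita to 0.016 in the first. Ciita was also 0.046 with normexp and 0.12 with the authors' table for LPS. Leaving out 1 array, LPS against untreated ranged from -0.17 to 0.40 for H2-Eb1, -0.23 to 0.078 for H2-DMa, -0.30 to 1.36 for H2-DMb2 and -0.29 to 0.13 for Ciita. LPS+USP7i against LPS ranged from -1.55 to 0.10 for H2-DMb2. LPS+USP7i against untreated ranged from -0.59 to 0.033 for H2-Ab1, -0.41 to 0.016 for H2-DMb2 and -0.57 to 0.16 for Cd74.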
